A study of Homo sapiens with 12 samples.

Results

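The comparison described here is CRISPRa of LTR5HS: RNA-seq of NCCIT lines that express dCas9-VPR, with the fusion recruited to LTR5HS or not. NCCIT is an established human embryonal carcinoma line, and its cells resemble the undifferentiated stem cells of a germ cell tumour. All lines compared carry a doxycycline-inducible dCas9-VPR transgene and a guide array, both inserted with PiggyBac transposons and kept by drug selection, and all were treated with doxycycline for 4 days before extraction. The recruitment line holds the LTR5HS array on the S. pyogenes scaffold (LTR5HS Sp), which the S. pyogenes dCas9 can load. The control lines hold either the same LTR5HS guides on the S. aureus scaffold (LTR5HS Sa) or a nontarget array on the S. pyogenes scaffold (nontarget Sp). Each line gave 2 libraries, so 6 of the 12 libraries of the series were used, 2 of recruitment and 4 of control. The study's methods call the replicates independent biological replicates, but every array stands for 1 line, so that an effect of recruitment and a peculiarity of the recruitment line cannot be told apart. Of 26641 genes in the table, 16271 had enough counts to be tested.

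LTR5HS is the youngest class of long terminal repeats of HERVK, a retrovirus that entered the primate germ line, and most copies stand alone in the genome without viral genes. Such repeats hold binding sites for transcription factors and can act as promoters or as enhancers. VPR is a strong tripartite activation domain, and CRISPRa with it raises transcription from promoters and enhancers to which the guides lead it. One part of VPR comes from the NF-kappaB subunit p65, encoded by RELA. KRAB, the domain used for CRISPRi in the other 6 libraries, recruits silencing complexes.

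The array holds 12 guides of 16 bases, and they are shown because they decide where the fusion could be placed. Each guide is given here 5′ to 3′, without the adjoining PAM, the NGG that S. pyogenes dCas9 needs.
LTR5HS-1: tactaagggaactcag
LTR5HS-2: aaaaccgccttagggc
LTR5HS-3: aaaactgccttagggc
LTR5HS-4: agcccgacacccgtaa
LTR5HS-5: aggagaaaaccacctt
LTR5HS-6: taccatctcggagagg
LTR5HS-7: aaccttggacaatacc
LTR5HS-8: taaagggtctgtgctg
LTR5HS-9: gacattccattgccca
LTR5HS-10: atagagaaagaaaagt
LTR5HS-11: gaaacgcccacaggtg
LTR5HS-12: aagctttcttgcttag
Exact matches followed by NGG, on either strand of hg38, numbered 2938 in all. LTR5HS-8 had the most, 726, followed by LTR5HS-7 with 525 and LTR5HS-9 with 434. LTR5HS-12 had only 2. Matches within 1500 bases of each other were joined, and the 649 resulting elements with at least 2 different guides are called targeted elements below. Up to 7 different guides matched the same element, and the median was 4. A match is a description of sequence. Binding of the fusion was not analysed here. Elements were not sorted by repeat class, so they need not all be LTR5HS. The study predicts that the array also matches part of the related LTR5A and LTR5B copies. With another dCas9 fusion it reports binding at part of those copies, and some peaks outside these repeats.

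As an example of how the sites lie, the element 2.54 kb from the start of VSIG10, 1 of the genes with the smallest adjusted p, held 6 different guides on chromosome 12 between positions 118106302 and 118106792 of hg38. Lower case letters are the bases paired by the guide, and capitals mark the PAM.
LTR5HS-7, chr12:118106302-118106320, minus strand: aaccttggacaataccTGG
LTR5HS-4, chr12:118106381-118106399, plus strand: agcccgacacccgtaaAGG
LTR5HS-8, chr12:118106394-118106412, plus strand: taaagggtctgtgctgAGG
LTR5HS-9, chr12:118106483-118106501, minus strand: gacattccattgcccaGGG
LTR5HS-2, chr12:118106546-118106564, plus strand: aaaaccgccttagggcTGG
LTR5HS-1, chr12:118106774-118106792, plus strand: tactaagggaactcagAGG
The same guides LTR5HS-1, LTR5HS-9, LTR5HS-8, LTR5HS-4 and LTR5HS-7 matched between 89067014 and 89067505 on chromosome 1, with that element 2.05 kb from the start of GBP1. Around CST1 and CST4 on chromosome 20, each nearest element held 3 guides, LTR5HS-10, LTR5HS-8 and LTR5HS-7.

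Total counts ranged from 18009114 to 20447696 per dCas9-VPR library, so that 3 counts, the limit below which a gene was treated as not detected, corresponded to between 0.147 and 0.167 CPM. Levels are given as CPM, read counts divided by library size after TMM scaling, which compares the same gene between libraries and not different genes. Across genes, which are not independent replicates, Pearson's r of log2 CPM was between 0.989 and 0.994 for libraries of the same line, between 0.980 and 0.985 for libraries of different control lines, and between 0.929 and 0.940 for a recruitment and a control library. Unless another test is named, adjusted p is from edgeR's quasi-likelihood test of 2 recruitment against 4 control libraries with Benjamini-Hochberg adjustment over all tested genes. A gene is said to be higher, lower, raised, lowered or changed where that value is under 0.05, and a fold is a log2 fold change of recruitment over control ± its standard error.

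With dCas9-VPR at LTR5HS, 28% of all tested genes changed, 4548 of 16271. Genes raised by recruitment numbered 2552, or 15.7%, and lowered genes 1996, or 12.3%. The raised genes changed by more. Of them, 63.6% moved over 2-fold and 218 over 16-fold, against 38.9% and 6 of the lowered genes. The median log2 fold change was 1.33 for raised genes (quartiles 0.76 and 2.32), -0.85 for lowered genes (quartiles -1.29 and -0.58) and -0.02 over all tested genes. Raised genes had a median of 8.22 CPM in control and lowered genes a median of 30.7 CPM. In 25.6% of tested genes both recruitment libraries lay above all 4 control libraries, and in 24.4% they lay below. Against each control array alone, 2112 of the raised genes (82.8%) and 1470 of the lowered genes (73.6%) passed the threshold in the same direction with both arrays. Without recruitment replicate 1 the counts were 1623 raised and 689 lowered, and without recruitment replicate 2 they were 1546 and 753. The lone recruitment library was then assumed to vary as the controls do.

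The library LTR5HS Sa replicate 1 stood apart from the other controls at the most raised genes. Over the 33 genes with a log2 fold change above 6 and at least 5 CPM in recruitment, a limit chosen after the values were seen, it held a median of 0.937% of the recruitment level, against 0.324%, 0.222% and 0.453% in LTR5HS Sa replicate 2, nontarget Sp replicate 1 and nontarget Sp replicate 2. It was the highest of the 4 control libraries for 24 of those 33 genes. The part of this library in the results was not tested, other than by leaving it out, which gave 2185 raised and 1552 lowered genes.

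The genes with the largest rises were close to silent in control, which a choice by fold favours. CST1, CST2 and CST4 encode salivary-type cystatins, secreted inhibitors of cysteine proteases. CST1 had 1411 and 1188 CPM in the recruitment libraries, against 11.3 and 0.622 CPM with LTR5HS Sa and 1.37 and 0.872 CPM with nontarget Sp, a log2 fold change of 8.47 ± 0.90 (adjusted p = 0.000282). CST2 had 300.0 and 295.4 CPM, against 1.82, 0.311, 0.264 and 0.164 CPM. CST4 had 10.6 and 9.89 CPM, and was at 0 in 3 control libraries and at 0.0466 CPM in the other. CST2 and CST4 were tested only because recruitment libraries held counts, so they had to be high there. In each of the 3 genes the recruitment libraries lay far above the controls. These paralogs are alike in sequence, and how reads matching several genes were counted is not given in the sources used here, so the split between them is uncertain.

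FUT7, which adds the fucose of sialyl Lewis X to selectin ligands, had 180.8 and 300.1 CPM with recruitment, 0.746 and 0.156 CPM with LTR5HS Sa and 0.106 and 0 CPM with nontarget Sp, a log2 fold change of 9.78 ± 0.50 (adjusted p = 7.02e-06). ST8SIA4, a polysialyltransferase, had 78.4 and 76.8 CPM against 0.560, 0.208, 0.106 and 0.109 CPM (8.21 ± 0.34). GBP1, a guanylate-binding protein known as interferon-induced, had 202.1 and 155.4 CPM against 1.26, 0.0519, 0.159 and 0.0545 CPM (8.76 ± 0.56). In all 3 the highest control value was that of LTR5HS Sa replicate 1. All 3 were tested only because recruitment libraries held counts, so they had to be high there. SLC6A19, a transporter of neutral amino acids, had 183.9 and 268.2 CPM against 1.68, 0.622, 0.211 and 0.109 CPM (8.35 ± 0.51). ADAM28, a membrane metalloprotease, had 77.5 and 80.9 CPM against 0.513 CPM or less in control (8.65 ± 0.41). ADAM28 also entered the test only through recruitment counts. SPHKAP, an anchoring protein for protein kinase A, KRTAP5-8, a keratin-associated protein, EVX1, a homeobox gene next to the HOXA cluster, and LOC440896 reached between 7.82 and 21.6 CPM in recruitment libraries, and their control values lay between 0 and 0.156 CPM. Folds are not given for genes with 10 or fewer reads over the 4 control libraries, such as these.

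**Figure D1:**
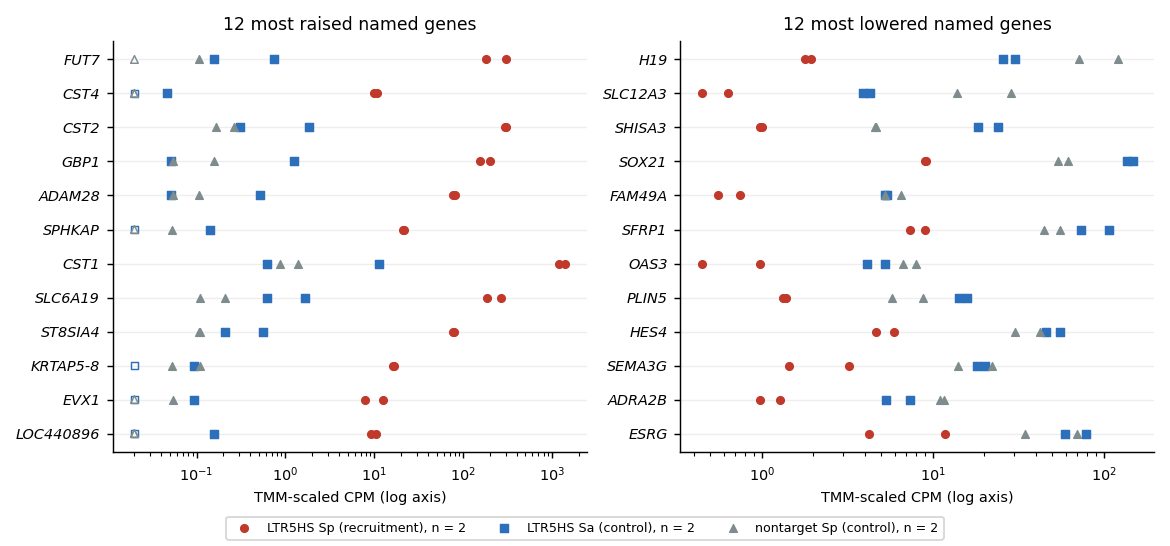
Levels of the 12 most raised and 12 most lowered named genes in each of the 6 libraries, in TMM-scaled CPM on a log axis. Red circles are recruitment, blue squares LTR5HS Sa and grey triangles nontarget Sp, and open symbols at the left edge mark 0 CPM. Recruitment points lie apart from every control point in all 24 genes, which were chosen by fold among changed genes. The control arrays lie apart from each other for genes such as H19 and SHISA3.

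The genes with the smallest adjusted p among those raised were expressed in control and varied little between libraries, traits that this choice favours. VSIG10, which encodes an immunoglobulin-domain membrane protein, rose from a range of 29.4 to 34.2 CPM in control to 536.2 and 555.5 CPM (4.08 ± 0.10, adjusted p = 1.31e-06). CACNA2D2, an auxiliary subunit of voltage-gated calcium channels, rose from a range of 42.8 to 52.1 CPM to 824.2 and 932.2 CPM (4.19 ± 0.11, adjusted p = 1.31e-06). AK4, a mitochondrial adenylate kinase, had 832.7 and 923.8 CPM against 17.1 to 25.8 CPM (5.31 ± 0.16). THBS2, a matricellular thrombospondin, had 227.5 and 289.3 CPM against 2.13 to 3.59 CPM (6.62 ± 0.20). The start of VSIG10 lay 2.54 kb from a targeted element, that of AK4 7.84 kb, that of CACNA2D2 16.9 kb and that of THBS2 92.8 kb.

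Among lowered genes, the largest falls were in H19, an imprinted long non-coding RNA. It had 1.78 and 1.96 CPM with recruitment, 25.7 and 30.1 CPM with LTR5HS Sa and 71.2 and 120.9 CPM with nontarget Sp (-5.04 ± 0.80, adjusted p = 0.00237). The control lines themselves did not overlap in H19, nor in SLC12A3, a sodium chloride cotransporter, with 0.632 and 0.447 CPM against 4.29 and 3.89 CPM with LTR5HS Sa and 13.9 and 28.5 CPM with nontarget Sp (-4.53 ± 1.06). SHISA3 had 0.977 and 1.01 CPM with recruitment, and its controls differed the other way, with 24.2 and 18.3 CPM with LTR5HS Sa and 4.60 and 4.63 CPM with nontarget Sp (-3.70 ± 0.87). Each of these 3 genes passed the threshold against either array alone. SOX21, a transcription factor of neural progenitors, had 9.02 and 9.11 CPM against 136.7, 147.8, 61.6 and 54.0 CPM (-3.46 ± 0.50). SFRP1, a secreted WNT antagonist, had 7.36 and 9.05 CPM against 44.5 to 106.9 CPM (-3.09 ± 0.38), and HES4, a transcriptional repressor of the HES family, 4.66 and 5.92 CPM against 30.2 to 55.1 CPM (-3.03 ± 0.27).

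The other genes of this group fell by similar amounts. FAM49A had 0.747 and 0.559 CPM against 5.27 to 6.54 CPM in control, OAS3, an antiviral oligoadenylate synthetase, 0.977 and 0.447 CPM against 4.10 to 7.96 CPM, and PLIN5, a lipid droplet protein, 1.38 and 1.34 CPM against 5.81 to 15.9 CPM. SEMA3G, a secreted semaphorin, had 1.44 and 3.24 CPM against 14.0 to 22.2 CPM, and ADRA2B, an adrenergic receptor, 0.977 and 1.29 CPM against 5.34 to 11.7 CPM. With the smallest adjusted p among lowered genes, LAMA1, the alpha 1 chain of basement membrane laminin, went from a range of 83.1 to 90.9 CPM to 19.5 and 18.9 CPM (-2.18 ± 0.11, adjusted p = 7.06e-06). MDK, the heparin-binding growth factor midkine, had 176.1 and 163.8 CPM against 554.7 to 560.3 CPM (-1.71 ± 0.09). The complement protease C1R had 4.60 and 5.25 CPM against 25.9 to 31.3 CPM (-2.52 ± 0.17), and SLC7A3, a cationic amino acid transporter, 11.5 and 10.5 CPM against 40.8 to 45.4 CPM (-1.95 ± 0.13). The controls of these last 4 genes agreed closely, which a choice by adjusted p favours.

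By the difference in CPM, the transcripts that gained most were COL2A1 and COL1A1, the fibrillar collagens of cartilage and of bone and skin. COL2A1 had 5021 and 6187 CPM with recruitment, 135.7 and 120.1 CPM with LTR5HS Sa and 236.5 and 212.6 CPM with nontarget Sp (4.99 ± 0.27). COL1A1 had 2992 and 3143 CPM, against 62.9 to 93.4 CPM in control (5.41 ± 0.17). KRT8, a keratin of simple epithelia, had 6239 and 4968 CPM against 2274 to 3700 CPM (0.96 ± 0.18), and ACTB, cytoplasmic actin, 5014 and 4983 CPM against 2433 to 3587 CPM (0.69 ± 0.14). AHNAK, a giant scaffold protein, had 3399 and 2960 CPM against 1003 to 1728 CPM (1.25 ± 0.21), and PRDX1, a peroxiredoxin with an element 6.79 kb from its start, 2563 and 2226 CPM against 575.2 to 611.0 CPM (2.01 ± 0.09). On the other side, the nuclear non-coding RNA MALAT1 had 2268 and 1513 CPM against 4446 to 5778 CPM (-1.43 ± 0.19), and FASN, the fatty acid synthase, 722.4 and 947.9 CPM against 1436 to 2576 CPM (-1.29 ± 0.23). TUBA1B, PKM and HSPG2 fell by less, with log2 fold changes of -0.49, -0.34 and -0.86, and PKM did not pass the threshold against nontarget Sp alone (adjusted p = 0.0909). The 28S ribosomal RNA entry RNA28S5 had 838.1 and 1535 CPM against 2399 to 3047 CPM (-1.17 ± 0.23). RNA was selected with oligo-dT, so these reads are what ribosomal RNA was left over, and less of it was left in the recruitment libraries. The part of this in other results was not tested.

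The shares of genes raised and lowered differed between classes of baseline level. To keep the grouping apart from the values tested, baseline classes were taken from the 4 dCas9-KRAB control libraries. These come from other lines than the dCas9-VPR controls, and levels of some genes differed widely between them, in both directions. The mean of H19 was 1.46 CPM in dCas9-KRAB control and 61.97 CPM in dCas9-VPR control, and that of ESRG 959.3 and 60.6 CPM. The share of genes raised was 57.1% of 21 genes at 0 CPM and 33.2% of 1288 genes above 0 and up to 0.5 CPM. It then went down to 20%, 17.6%, 12.2% and 11.4% in the classes 0.5 to 1, 1 to 10, 10 to 100 and over 100 CPM. The share lowered rose from 0% and 3.8% through 5.17%, 10.6% and 14.7% to 15.3% over the same classes. A gene with few reads in control has little level to lose, and the shares lowered in the low classes are limited by that. Genes near 0 in dCas9-VPR control could enter the test only through counts in recruitment libraries, so they had to be high there. The low classes hold such genes beside others with reads in dCas9-VPR control. SLC12A3, for example, had a mean of 0.252 CPM in dCas9-KRAB control and 12.65 CPM in dCas9-VPR control. Counting only the 15641 genes that the control libraries alone would have let in, 13.9% were raised and 12.8% lowered. With classes from the mean of all dCas9-VPR libraries, the share raised in the class above 100 CPM was 17.4%. That mean includes the recruitment values.

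By gene type, 15.8% of 14465 protein-coding genes were raised and 13.1% lowered. Among 832 long non-coding RNAs the shares were 16.1% and 6.01%, and among 260 pseudogenes 21.2% and 3.85%. The smaller shares lowered among long non-coding RNAs and pseudogenes were not tested against expression level. The share raised was 11.3% in the fifth of genes with the shortest transcripts (median 1231 bp) and 17.9% in the fifth with the longest (median 7263 bp).

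Distance to a targeted element separated raised from lowered genes. It was measured from the canonical start in GENCODE 44 to the middle of the nearest element, for the 15730 tested genes with a position. Within 5 kb of an element 62 of 89 genes were raised (69.7%) and 0 lowered in edgeR (1 at an unadjusted p under 0.05, 0 by DESeq2), and from 5 to 50 kb 384 of 579 were raised (66.3%) and 12 lowered (2.07%). The share raised was then 28.4% from 50 to 200 kb, 15.5% from 200 to 500 kb, 12% from 500 to 1000 kb and 11.3% beyond, and the share lowered rose to 4.85%, 10.5%, 13.8% and 14.4% in the same classes. Within 50 kb, the share raised was 58% where the element held 2 or 3 guides (226 genes), 67.2% with 4 or 5 guides (296 genes) and 79.5% with 6 or 7 guides (146 genes). Of the 605 genes within 50 kb that the control libraries alone would have let into the test, 64% were raised.

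Most raised genes nevertheless lay far from any targeted element. Only 446 of the 2481 raised genes with a position (18%) were within 50 kb, and 1078 (43.5%) were over 1000 kb away. With any single exact guide match counted as an element, 856 of them were over 1000 kb away, and sites with mismatches were not counted. The median distance to a targeted element was 653.9 kb for raised genes, 1840 kb for lowered genes and 1492 kb for all tested genes. Among the 206 positioned genes raised over 16-fold, 28.6% were within 50 kb and 29.6% over 1000 kb away, with a median of 222.8 kb. FUT7 is 1 of the latter group, with its nearest element 2939 kb away. No promoter in the RefSeq table (bases around each gene's start, GRCh38) matched a guide with its PAM exactly or with a single mismatch. Promoters with 2 mismatches numbered 9, or 0.033% of promoters in the table. Of the 6 tested genes among them 1 was raised (16.7%) and 0 were lowered, against 15.7% and 12.3% over all tested genes. With 3 mismatches 13.5% of 37 tested genes were raised, and with 4 mismatches 19.3% of 383. Mismatched sites outside these promoter stretches were not searched, and action of the fusion at such sites was not tested.

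**Figure D2:**
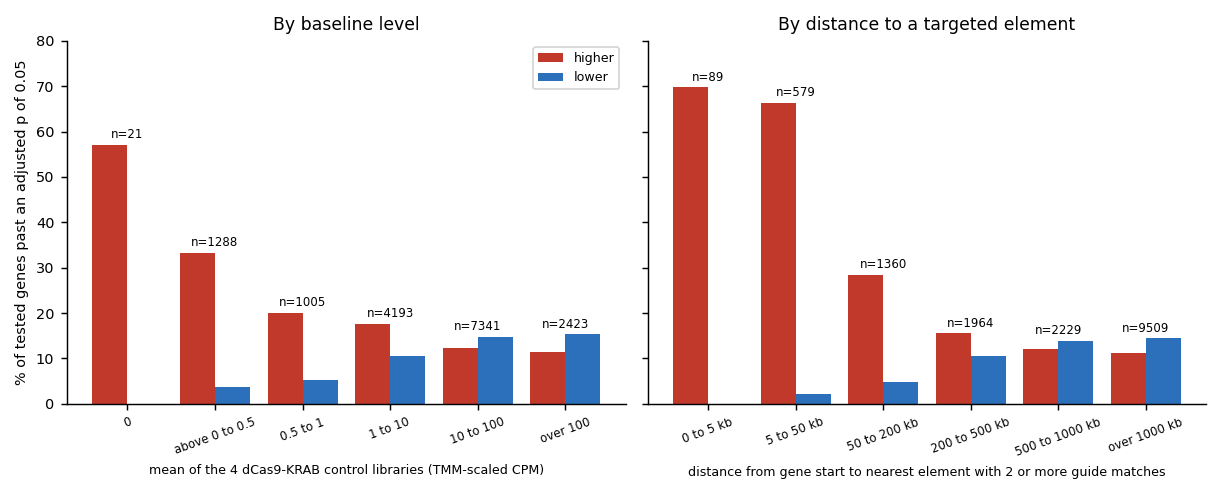
Share of tested genes raised (red) or lowered (blue) at an adjusted p of 0.05, by level in the 4 dCas9-KRAB control libraries (left, TMM-scaled CPM) and by distance from gene start to the nearest targeted element (right). The number of genes stands above each pair of bars. The share raised falls from 69.7% within 5 kb to 11.3% beyond 1000 kb, while the share lowered rises from 0% to 14.4%.

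Over all tested genes 15.7% were raised and 12.3% lowered, and the counts of each list below stand beside these shares. Counts near them describe single members and not a shift of the list. Counts of members within 200 kb of an element are to be read beside the distance classes. Over all tested genes 69.7% were raised within 5 kb, 66.3% from 5 to 50 kb and 28.4% from 50 to 200 kb. Of the gene programmes examined, the HOX clusters, which encode the transcription factors that pattern the body axis, had the largest share raised. Of 39 HOX genes 29 were tested, 23 of them were higher and 1 was lower, with a median log2 fold change of 3.45 against -0.02 over all genes. Since 12 of the 29 were tested only because recruitment libraries held reads, the count without them was 12 higher and 1 lower of 17, with a median of 1.96. None had a targeted element within 200 kb. HOXA11 lay 556.8 kb, HOXB9 2342 kb and HOXD11 5844 kb from the nearest element.

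In the HOXD cluster all 9 tested genes were raised. HOXD11 had 28.1 and 18.6 CPM with recruitment against 0.373, 0.208, 0.106 and 0.109 CPM (6.79 ± 0.36, adjusted p = 8.68e-06). HOXD10 had 23.5 and 14.6 CPM against 0.187, 0.0519, 0 and 0.109 CPM, and HOXD8 6.44 and 4.47 CPM against 0.0933, 0.208, 0.106 and 0.109 CPM. HOXD4, which had reads in control, went from a mean of 3.35 to a mean of 21.6 CPM (2.68 ± 0.23). In the HOXA cluster HOXA11 had 29.6 and 22.6 CPM against 0.886, 0.571, 1.11 and 0.436 CPM (5.10 ± 0.30), and HOXA7, with a log2 fold change of 0.90 ± 0.42, did not pass (adjusted p = 0.149). In HOXB, the posterior gene HOXB9 went from 0.849 to 27.5 CPM (5.02 ± 0.37). HOXB2 and HOXB3 had log2 fold changes of -0.19 and -0.73 and did not pass, with adjusted p of 0.773 and 0.279. HOXC13 was the member that was lower, from 0.966 to 0.283 CPM (-1.75 ± 0.49, adjusted p = 0.0300). With CRISPRi, 14 HOX genes were tested and 0 passed in either direction in edgeR, while 5 were lower and 0 higher at an unadjusted p under 0.05, and DESeq2 called 0 lower and 0 higher.

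**Figure D3:**
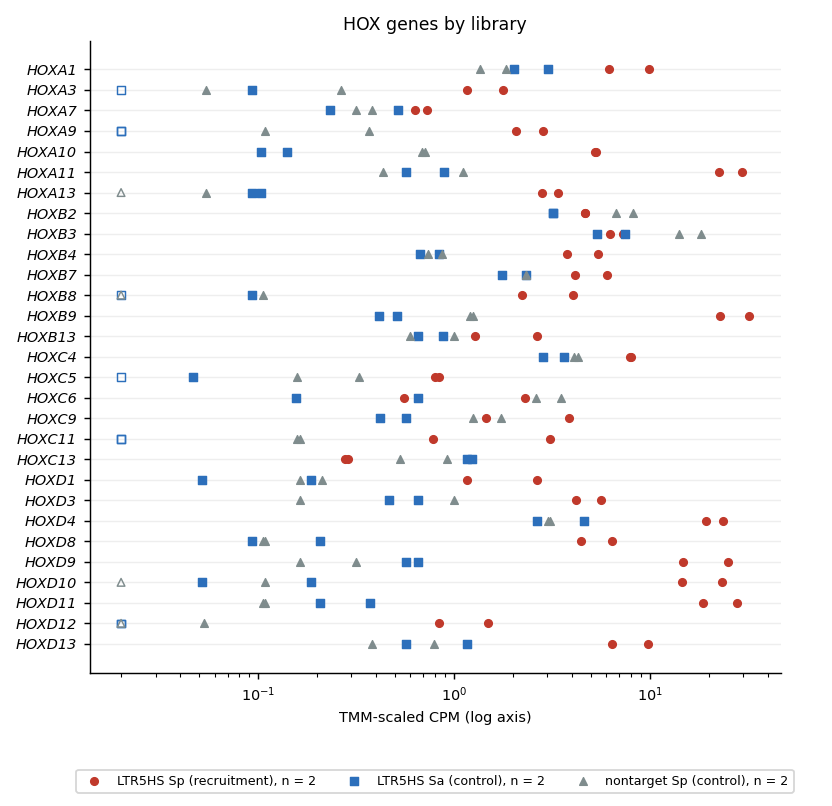
Levels of the 29 tested HOX genes in the 6 dCas9-VPR libraries, in TMM-scaled CPM on a log axis, ordered by cluster and number. Red circles are recruitment, blue squares LTR5HS Sa, grey triangles nontarget Sp, and open symbols 0 CPM. In 23 genes the recruitment libraries are raised, and HOXB2, HOXB3 and HOXC6 overlap with control.

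The identity of the cells was checked with markers. Of 10 embryonal carcinoma markers all were detected in every library, and their summed level was 1280 and 1313 CPM with recruitment against 1179 to 1836 CPM in control. Each marker had a lower mean in the dCas9-VPR controls than in the dCas9-KRAB controls, which were scaled separately. NANOG had 2.47 against 144.6 CPM, TDGF1 14.4 against 181.1 CPM, L1TD1 82.5 against 1083 CPM and SALL4 104.4 against 147 CPM. This difference between the fusions was not tested. SOX2, a core factor of pluripotency, had 135.8 and 182.1 CPM against 450.1, 467.3, 280.1 and 300.4 CPM (-1.24 ± 0.25, adjusted p = 0.00735). L1TD1, an RNA-binding protein of pluripotent cells, had 263.4 and 242.8 CPM against 54.0 to 121.8 CPM (1.62 ± 0.26). SALL4 and DPPA4 had log2 fold changes of 0.06 ± 0.18 and 0.07 ± 0.12 and did not pass. LIN28A had 493.8 and 391.4 CPM, between the 626.4 and 790.4 CPM of LTR5HS Sa and the 324.0 and 292.3 CPM of nontarget Sp. It was thus called lower against the former (adjusted p = 0.00891) and higher against the latter (adjusted p = 0.0304). POU5F1, with 10.2 and 29.6 CPM in the recruitment libraries against 13.3 to 16.04 CPM, and NANOG, with 3.74 and 2.96 CPM against 1.09 to 5.13 CPM, did not pass. Both have near-identical processed copies in the genome, and their counts are uncertain for that reason.

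Of the 25 tested genes of the pluripotency list, 7 were lower and 2 were higher, with a median log2 fold change of -0.27. Lowered members were ESRG, a non-coding RNA transcribed from a HERVH insert (11.7 and 4.25 CPM against 34.8 to 78.8 CPM, -2.93 ± 0.46), SOX2, PRDM14 (-0.91 ± 0.19), the DNA methyltransferase DNMT3B (-0.62 ± 0.14), ZFP42, UTF1 and ZIC2. The higher ones were L1TD1 and CD9, a tetraspanin with an element 8.73 kb from its start. The number lowered ranged from 1 to 7 when a library was left out. In a list of genes known from naive pluripotency, 8 of 16 tested members were higher and 1 was lower (median 1.30), and of the 6 with an element within 200 kb 5 were higher. By the control libraries alone 14 would have been tested, with 6 higher, 1 lower and a median of 0.89. Among them the placental-type alkaline phosphatases ALPP (40.98 and 45.2 CPM against 2.18 to 3.33 CPM, 4.04 ± 0.18) and ALPPL2 (69.6 and 94.0 CPM against 8.66 to 18.3 CPM, 2.76 ± 0.29) are alike in sequence, and reads may be split between them. TFCP2L1, a transcription factor of the naive state, went from 41.5 to 219.7 CPM (2.41 ± 0.26), NLRP7 from 0.0998 to 4.09 CPM and TBX3 from 34.5 to 179.4 CPM (2.38 ± 0.17). TBX3 also has roles in mesoderm and trophoblast, and its nearest element was 3422 kb away.

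In the mesoderm list 8 of 18 tested genes were higher and 0 were lower in edgeR (1 lower at an unadjusted p under 0.05 and 1 by DESeq2; median 0.98), and none had an element within 200 kb. Of the 18, 3 were tested only through reads in the recruitment libraries, and the count without them was 5 higher of 15, with a median of 0.39. Without LTR5HS Sp replicate 2, 5 of the list were higher. EOMES, a T-box factor of the primitive streak, had 5.35 and 3.46 CPM with recruitment against 0.156 to 0.327 CPM (4.29 ± 0.35). BMP4 had 66.2 and 50.4 CPM against 15.6 to 17.9 CPM (1.81 ± 0.14), GATA2 54.7 and 54.5 CPM against 13.5 to 18.7 CPM (1.76 ± 0.15), and the caudal factor CDX2 12.4 and 11.2 CPM against 0.519 to 1.69 CPM (3.72 ± 0.39). In the trophoblast list 7 of 12 tested genes were higher and 1 was lower (median 1.62). Counting only genes that the control libraries alone let into the test, 5 of 10 were higher and 1 lower, with a median of 1.03. GATA2 and CDX2 belong to it as well, with GATA3 (1.48 ± 0.29), TP63, CGB7, CYP19A1 and the heparan sulfate proteoglycan SDC1 (57.4 and 72.1 CPM against 6.11 to 14.3 CPM, 2.63 ± 0.31), while PGF, placental growth factor, was lower (-1.54 ± 0.28). The defining trophoblast markers CGA, GCM1, CGB5, PSG3 and ERVW-1 were all below 1 CPM in every library.

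Endoderm and neural regulators moved in both directions. In the endoderm list 3 of 11 tested members were higher, among them GATA6 (1.28 ± 0.22), and 4 were lower, among them EPCAM (-1.22 ± 0.21), FOXA3 (-1.22 ± 0.29) and LEFTY1 (-1.41 ± 0.35). In the early neural list 4 of 19 were higher and 4 lower (21.1% each), against 15.7% and 12.3% over all tested genes. POU3F2, a POU factor of neural progenitors, had 19.8 and 27.8 CPM against 1.399, 1.297, 0.423 and 0.382 CPM (4.73 ± 0.43), and LHX2 of the forebrain rose too (1.56 ± 0.23). OTX2 (-1.12 ± 0.27), TUBB3 and OLIG2 were among the lower ones. Left out in turn, single libraries took the number of lowered neural genes down to as few as 0, and without LTR5HS Sa replicate 1 it was 1. In the germ cell list 2 of 14 were higher and 3 lower, the latter PDPN (-1.35 ± 0.13), UTF1 and ITGA6, and of the 4 tested cancer-testis antigens 1, FATE1, was higher. It was tested only because the recruitment libraries held reads, and of the 3 that the controls alone let in 0 were higher in edgeR.

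In the WNT list 18 of 41 tested genes were higher and 6 lower (median 0.53), and between 14 and 18 were higher with a library left out. Genes known to be switched on by beta-catenin were among them. LEF1, a nuclear partner of beta-catenin, had 15.6 and 15.3 CPM against 0.466 to 0.872 CPM (4.54 ± 0.24), and SP5 had 48.6 and 80.3 CPM against 0.818 to 2.61 CPM (5.37 ± 0.36). AXIN2 went from 36.7 to 156.6 CPM (2.09 ± 0.19), NKD1 from 22.1 to 74.4 CPM (1.76 ± 0.26) and the ubiquitin ligase RNF43, which removes Frizzled receptors, from 11.9 to 63.7 CPM (2.42 ± 0.20). Of the ligands, WNT3, WNT3A, WNT7A, WNT9A, WNT2B, WNT5A, WNT5B and WNT11 were higher and WNT4 was lower (-1.18 ± 0.29). Of the receptors, FZD2 had 202.8 and 272.0 CPM against 29.4 to 49.8 CPM (2.63 ± 0.20), FZD10 and FZD5 were higher, and FZD3, FZD4 and FZD9 were lower. The secreted antagonists went both ways, SFRP1 and FRZB down and SFRP5 and DKK3 up.

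In the BMP and TGF-beta list 11 of 34 tested genes were higher and 5 lower (median 0.09). MSX1, a homeobox target of BMP signalling, had 322.1 and 290.9 CPM against 5.04, 4.31, 8.19 and 11.5 CPM (5.41 ± 0.32), and MSX2 (2.34 ± 0.26), ID3 (1.14 ± 0.21) and the decoy receptor BAMBI (122.7 and 107.2 CPM against 26.5 to 33.3 CPM, 1.89 ± 0.12) rose with it. The ligands BMP4, BMP7 (1.39 ± 0.22), BMP2, GDF10, TGFB2 and TGFB3 were higher. Lowered members were TGFBR3 (-1.62 ± 0.15), TGFBI, GDF15, BMPR1B and the BMP antagonist CHRD (-1.56 ± 0.48). In the Nodal list 3 of 23 were higher (13%) and 2 lower (8.7%), against 15.7% and 12.3% over all tested genes. DACT1, which dampens signalling inside the cell, had 107.0 and 118.6 CPM against 2.45 to 4.34 CPM (5.07 ± 0.22) and SMAD7, the inhibitory SMAD, 103.7 and 106.2 CPM against 28.9 to 47.1 CPM (1.54 ± 0.18), while the Nodal antagonist LEFTY2 had 4.14 and 3.19 CPM against 17.95 to 33.0 CPM (-2.65 ± 0.31).

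Of EPH receptors and ephrins, the contact signals that sort cells at boundaries, 11 of 21 were higher and 4 lower (median 0.69), and none lay within 200 kb of an element. EFNA1 had 76.7 and 86.2 CPM against 7.05 to 11.5 CPM (3.15 ± 0.18), EPHB1 16.6 and 27.3 CPM against 1.21 to 2.08 CPM (3.83 ± 0.28), and EPHA7 went from 4.41 to 39.3 CPM (3.14 ± 0.42). EPHB2 (-1.71 ± 0.27), EFNB3, EPHA3 and EFNA2 were lower. In the Hedgehog list 6 of 14 were higher, led by the co-receptor BOC (25.6 and 28.3 CPM against 2.56 to 4.15 CPM, 3.03 ± 0.20), and GAS1 was lower. The number higher was 3 without LTR5HS Sp replicate 1 and 1 without LTR5HS Sp replicate 2. In the NOTCH list 6 of 27 were higher (22.2%) and 5 lower (18.5%), against 15.7% and 12.3% over all tested genes. Its leading member, the divergent ligand DLL3, had 701.4 and 932.4 CPM against 2.65 to 7.55 CPM (7.49 ± 0.35) with an element 18.9 kb away. HES1 and HEY2 were higher (1.82 ± 0.17 and 1.75 ± 0.22), and HES4, HES6, HEYL, NRARP and LFNG lower. In the FGF and receptor tyrosine kinase list 9 of 36 were higher and 6 lower. FGF13 had 463.4 and 520.2 CPM against 51.4 to 57.9 CPM (3.17 ± 0.10) and PDGFRB 42.6 and 51.7 CPM against 8.77 to 13.1 CPM (2.21 ± 0.19). The FGF receptors FGFR2 (-1.44 ± 0.12), FGFR3 and FGFR4 were lower.

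Genes of the extracellular matrix were raised in larger numbers than lowered, 20 against 7 of 51 tested (median 0.43). Beside COL1A1 and COL2A1 stood COL14A1, a fibril-associated collagen (355.5 and 455.4 CPM against 5.65 to 10.6 CPM, 5.64 ± 0.22), COL9A2 of cartilage (731.2 and 817.0 CPM against 105.5 to 142.2 CPM, 2.62 ± 0.13), FBN2 (3.27 ± 0.22), COL6A3 (3.22 ± 0.36) and COL12A1 (2.84 ± 0.29). COL6A1 and COL6A2, the partner chains of COL6A3, were lower (-1.02 ± 0.27 and -0.87 ± 0.18), as were LAMA1, LAMB3, NID2 and LOXL2. In the list of mesenchymal genes and regulators of epithelial-mesenchymal transition 9 of 21 were higher and 1 lower, and CDH11, FOXC1, PRRX1, ITGA5, THY1 and SNAI2 were among those higher. The number higher was 2 without LTR5HS Sp replicate 1 and 5 without LTR5HS Sp replicate 2. Of the 7 fibroblast markers, 3 were higher, COL1A1, PDGFRB and THY1. Their summed level was 3160 and 3324 CPM with recruitment and 124.8 to 190.2 CPM in control, nearly all of it COL1A1. COL1A2, the partner chain of COL1A1 in fibroblast collagen, was at 0.279 CPM or less and DCN at 0.0528 CPM or less in every library. In bulk RNA, more cells of a type and more RNA per cell cannot be told apart.

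In the claudin and tight junction list 11 of 41 tested members were lower and 4 higher (median -0.31). The number lower was 3 without LTR5HS Sp replicate 1, 4 without LTR5HS Sp replicate 2 and 18 against nontarget Sp alone. CLDN4 had 2.59 and 2.18 CPM against 8.04 to 15.8 CPM (-2.19 ± 0.32), and CLDN5, CLDN10, CLDN18, CLDN23, EPCAM, PRSS8 and the factors ELF3 and GRHL1 were lower. CLDN19 and MARVELD1 were higher (1.42 ± 0.20 and 1.53 ± 0.22). Of 11 tested keratins KRT8 and KRT15 were higher and KRT19 was lower (-1.20 ± 0.32).

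Neuronal and channel genes were raised more often than lowered, while the neuron markers NEUROD1, ELAVL3 and ELAVL4 were at 0.279 CPM or less in every library. In the synapse list 14 of 42 were higher and 6 lower (median 0.33). GAD1, which makes GABA, had 47.8 and 53.9 CPM against 0.571 to 1.91 CPM (5.47 ± 0.33), and the glutamate receptor subunits GRIK3 (3.85 ± 0.32), GRIA1 (2.61 ± 0.27) and GRIN2A (2.42 ± 0.30) were higher. SHANK3 and NLGN2 were lower (-1.74 ± 0.28 and -1.05 ± 0.18). Of voltage-gated channels 15 of 43 were higher and 6 lower (median 0.30). Besides CACNA2D2, its relative CACNA2D3 had 47.1 and 47.2 CPM against 1.58 to 2.54 CPM (4.50 ± 0.21), and KCNA6 and KCNH2 rose (1.84 ± 0.11 and 3.85 ± 0.26). Of the 7 channel genes with an element within 200 kb 5 were higher.

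In the list of serpins and cystatins 12 of 21 tested members were higher and 3 lower (median 0.63). Of these, 4 raised members, CST4 among them, were tested only through the recruitment libraries, and without such genes 8 of 17 were higher, with a median of 0.37. Of these genes 12 had an element within 200 kb, and 9 of those were higher. SERPINB9, the inhibitor of granzyme B, had 1664 and 1505 CPM against 116.6, 89.4, 90.5 and 69.6 CPM (4.11 ± 0.18, element at 5.82 kb), while SERPINF1 and SERPINA5, without such an element nearby, were lower (-1.63 ± 0.25 and -1.82 ± 0.30). Among fucosyl- and sialyltransferases 8 of 28 were higher and 5 lower, and 4 of the 24 that the control libraries alone let into the test were higher. ST6GAL1, which caps N-glycans with sialic acid, had 1051 and 1217 CPM against 93.4, 87.2, 51.1 and 42.0 CPM (4.05 ± 0.30), and ST6GALNAC3 had 38.7 and 40.5 CPM against 4.70 to 7.46 CPM (2.80 ± 0.19).

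**Figure D4:**
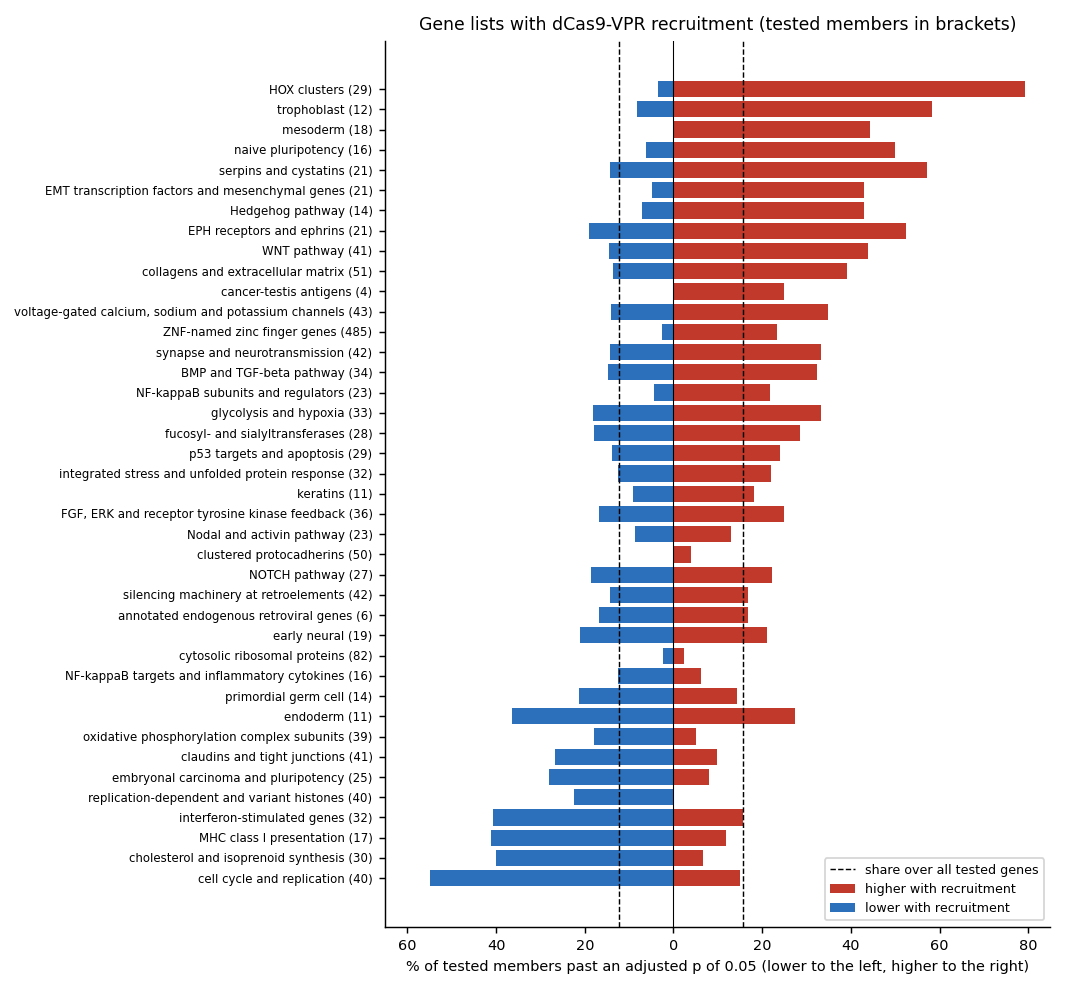
Share of tested members raised (red, to the right) and lowered (blue, to the left) in each of 40 gene lists, with the number tested in brackets. Dashed lines mark the shares over all tested genes, 15.7% and 12.3%. HOX clusters stand at one end with 79.3% raised, and the cell cycle list at the other with 55% lowered.

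Of 32 tested interferon-stimulated genes 5 were higher and 13 lower (median -0.71). Of the 6 with an element within 200 kb 5 were higher and 0 lower, and of the other 26 0 were higher (0 at an unadjusted p under 0.05, 0 by DESeq2) and 13 were lower, by edgeR. Of the 5 raised genes, 3 with next to no reads in control (GBP1, GBP2 and MX1) were tested only through the recruitment libraries, so they had to be high there. Of the 29 that the controls alone let in, 2 were higher and 13 lower. The raised ones were GBP1, GBP2 (7.42 and 4.92 CPM against 0.106 to 0.259 CPM, 5.05 ± 0.34), MX1 (7.702 and 7.599 CPM against 0.164 to 0.423 CPM, 4.79 ± 0.30), USP18 and STAT2, a signal transducer of type I interferon, with 203.1 and 222.9 CPM against 88.8 to 103.7 CPM (1.13 ± 0.10). Lowered members included OAS3, DHX58 (-2.75 ± 0.35), BST2 (-2.04 ± 0.40), IFITM1, IFITM3 (-1.43 ± 0.18), IFI6, IFIT1 and ISG15 (-1.05 ± 0.27). The number lowered was 6 without LTR5HS Sp replicate 1 and 3 without LTR5HS Sp replicate 2. Antigen presentation by MHC class I had 7 of 17 lower and 2 higher. B2M, the shared light chain, had 13.6 and 17.2 CPM against 37.7 to 56.8 CPM (-1.61 ± 0.22), and the proteasome activator PSME1 14.0 and 14.6 CPM against 29.0 to 49.5 CPM (-1.47 ± 0.26).

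In the NF-kappaB list 5 of 23 subunits and regulators were higher and 1 lower. NFKB2, the precursor of p52, had 520.6 and 630.6 CPM against 58.4, 61.2, 43.6 and 51.9 CPM (3.42 ± 0.15) with an element 3.69 kb away. TNFAIP3, which shuts off NF-kappaB signalling, had 38.6 and 47.7 CPM against 4.91 to 7.04 CPM (2.80 ± 0.17, element at 22.2 kb), and the inhibitor NFKBIE 46.2 and 51.2 CPM against 15.2 to 23.5 CPM (1.44 ± 0.18). RELB was lower (-0.89 ± 0.24). Of 16 tested NF-kappaB targets and cytokines 1, IL11, was higher. It did not pass against nontarget Sp alone (0.72, adjusted p = 0.101), and the list had 0 higher in edgeR when any 1 of the LTR5HS Sa or LTR5HS Sp libraries was left out. In the same list IL32 and TNFAIP2 were lower (-2.54 ± 0.48 and -1.38 ± 0.28). RELA had 82.0 and 74.7 CPM against 57.6 to 68.9 CPM and did not pass (0.35 ± 0.11, adjusted p = 0.0508). Reads of RELA cannot be told apart from any of the p65 part of the transgene that all 6 libraries express.

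Cell cycle genes formed the list with the largest share lowered. Of 40 tested members 22 were lower and 6 higher (median -0.44), and between 13 and 24 were lower when a library was left out. AURKB, the mitotic Aurora kinase, had 31.7 and 35.0 CPM against 84.95 to 95.2 CPM (-1.44 ± 0.11, adjusted p = 4.73e-05), and TOP2A, the topoisomerase that untangles chromosomes, 107.2 and 131.1 CPM against 219.3 to 268.0 CPM. MKI67 (-0.82 ± 0.11), CDK1 (-1.23 ± 0.21), CCNA2, CCNB1, CCNB2, PCNA, E2F1, E2F2 and MCM3, MCM4 and MCM6 of the replicative helicase were lower as well. The higher ones were the inhibitor CDKN2A (74.7 and 79.5 CPM against 12.3 to 17.1 CPM, 2.41 ± 0.14), the D-type cyclins CCND1 and CCND2 (783.3 and 697.0 CPM against 168.4 to 280.4 CPM, 1.62 ± 0.18), CDK2, CDK6 and CCNE2. Histone genes, which are transcribed in S phase and mostly lack poly(A) tails, had 9 of 40 lower and 0 higher in edgeR (0 higher at an unadjusted p under 0.05 and 0 by DESeq2 among them), with a median of -0.56. The number lower was 3 and 2 without LTR5HS Sp replicates 1 and 2, 6 without LTR5HS Sa replicate 1 and 14 against LTR5HS Sa alone. Of the 9, HIST1H2BJ had the highest level in control, a mean of 7.83 CPM. Of 16 histone genes with an element within 200 kb, 0 were higher and 1 was lower.

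In lipid metabolism 12 of 30 genes of cholesterol and fatty acid synthesis were lower and 2 higher (median -0.34). The number lower was 5 without LTR5HS Sp replicate 1 and 6 without LTR5HS Sp replicate 2. Beside FASN, the desaturase SCD had 180.8 and 159.2 CPM against 430.2 to 490.6 CPM (-1.44 ± 0.11). FADS1, FADS2, INSIG1 and SQLE were lower. DHCR7, of the last step of cholesterol synthesis, was among the higher ones (1.08 ± 0.13). In glycolysis and hypoxia 11 of 33 were higher and 6 lower. ADM, a peptide hormone with an element 86.6 kb away, had 245.3 and 316.3 CPM against 52.3 to 60.6 CPM (2.31 ± 0.12), PFKP, PFKL, PFKFB3, HK2 and the transporter SLC2A3 were higher, and ALDOC, HK1, GPI, PKM, EGLN3 and CA9 were lower. Of 39 oxidative phosphorylation subunits 2 were higher, NDUFV1 and UQCRH, both with an element within 20 kb, and 7 lower, with log2 fold changes between -0.35 and -0.62.

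Most counts in other lists were also smaller when a recruitment library was left out. Without LTR5HS Sp replicate 1 the number lower was 1 for pluripotency, 3 for MHC class I, 13 for the cell cycle, 2 for WNT, 1 for the extracellular matrix, 2 for oxidative phosphorylation and 2 for zinc finger genes, and without LTR5HS Sp replicate 2 it was 4, 3, 15, 5, 3, 1 and 3 in the same order. The number higher without LTR5HS Sp replicate 1 was 7 for EPH receptors and ephrins, 7 for BMP and TGF-beta, 5 for FGF, 66 for zinc finger genes, 2 for the stress response, 3 for p53 and 2 for the silencing machinery, and without LTR5HS Sp replicate 2 it was 8, 12, 9, 68, 3, 3 and 3. Extracellular matrix, WNT and HOX genes had at least 17, 14 and 18 members higher with any library left out.

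Other lists held few changes or were mixed. Of 82 cytosolic ribosomal protein genes 2 were higher and 2 lower (median 0.00). Both higher ones, RPL24 and RPL8, had an element within 6 kb. Clustered protocadherins had 2 of 50 higher and 0 lower in edgeR (0 lower at an unadjusted p under 0.05 and by DESeq2), but 13 were higher against nontarget Sp alone and 7 lower against LTR5HS Sa alone, so the count depended on the control line. In the stress response list 7 of 32 were higher, with PPP1R15A (1.55 ± 0.19, element at 17.8 kb) and ATF3 (1.19 ± 0.18), and 4 lower, with PSAT1 and ERN1 (-1.05 ± 0.17 and -0.93 ± 0.16). These were 21.9% and 12.5% of the list, against 15.7% and 12.3% over all tested genes. In the p53 list 7 of 29 were higher (24.1%) and 4 lower (13.8%). PERP and ZMAT3 were higher (1.08 ± 0.16 and 0.95 ± 0.16), while FDXR, DDB2, GDF15 and MDM2 were lower.

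Zinc finger genes, many of which encode KRAB repressors of retroelements, had 113 of 485 tested ZNF-named members higher (23.3%) and 13 lower (2.68%), with a median of 0.24. Of the 165 within 200 kb of an element 75 were higher and 1 lower, and of the 319 farther away 38 were higher and 12 lower. The median distance to an element was 421 kb for the list and 1492 kb for all tested genes. Over all tested genes, 28.4% were raised from 50 to 200 kb, more nearer by, and 15.5% to 11.3% in the classes farther away. Whether the list differed from other genes at the same distance was not tested. ZNF577 had 30.5 and 33.8 CPM against 3.43 to 4.58 CPM (2.97 ± 0.16), ZNF578 52.5 and 53.3 CPM against 5.18 to 8.44 CPM (2.92 ± 0.18) and ZNF75D 62.9 and 68.8 CPM against 10.6 to 13.7 CPM (2.41 ± 0.13). All 3 lay within 41 kb of an element and all 3 were lower with CRISPRi, with log2 fold changes of -1.99, -2.99 and -1.83. These genes are alike in sequence. In the silencing machinery 7 of 42 were higher (16.7%) and 6 lower (14.3%), near the 15.7% and 12.3% over all tested genes. MPHOSPH8, a subunit of the HUSH complex, had 213.1 and 224.6 CPM against 81.3 to 87.1 CPM (1.38 ± 0.09, element at 33.0 kb), and the cytidine deaminases APOBEC3C, APOBEC3F and APOBEC3G were higher, while the chromatin assembly subunits CHAF1A and CHAF1B, DNMT3B and HELLS were lower. Of the 6 tested annotated retroviral genes ERVV-2 was higher (1.24 ± 0.22) and ERVMER34-1 lower (-1.42 ± 0.38).

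The same recruitment was compared with control for dCas9-KRAB, with its own 2 and 4 libraries. By the same test 0.831% of 15520 genes were higher and 1.94% lower with CRISPRi, 129 and 301 genes. Of the 2552 genes raised with CRISPRa, 222 were lower and 23 higher with CRISPRi, and of the 1996 lowered genes 17 were higher and 12 lower. Whether recruitment acted differently with VPR and with KRAB was tested as an interaction over all 12 libraries. The test passed in 21% of 16673 genes, 3505 in all, and in 1677 of the raised and 1261 of the lowered genes. Raised and lowered genes, and the genes named next, were chosen by dCas9-VPR values that also enter the interaction. That choice favours a pass, so their interaction results are not independent of it. VSIG10 had log2 fold changes of 4.08 with CRISPRa and -2.68 with CRISPRi (interaction adjusted p = 3.10e-10), CACNA2D2 4.19 and -2.11, SERPINB9 4.11 and -3.50, PRDX1 2.01 and -1.63 and NFKB2 3.42 and -1.94. In these 5 genes both changes passed. COL1A1, MSX1 and LEF1, all over 900 kb from an element, had CRISPRi values of -0.58, 0.68 and 0.09 and did not pass with CRISPRi, and their interaction adjusted p were 4.30e-06, 4.15e-05 and 0.00213. Their means in dCas9-KRAB control were only 9.52, 0.982 and 0.396 CPM, against 44.7 to 876.4 CPM for the 5 genes above. MSX1 and LEF1 thus had little level to lose, and a fall in them could hardly be seen. Of the 85 genes raised over 16-fold that CRISPRi libraries allowed to be tested, 36 were lower with CRISPRi.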

How the data were processed

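Poly(A)-selected RNA of NCCIT lines was sequenced as paired reads, in 6 dCas9-VPR and 6 dCas9-KRAB libraries. The authors trimmed the reads with cutadapt 1.8.1, aligned them with HISAT2 2.1.0 to hg38 and assigned them with featureCounts 1.4.6-p2, as named in their processing notes and methods. The deposited table gives whole-number read counts of every gene, which the authors had not normalized, and a column with gene length in bp. Library preparation as described did not mark strand, so antisense genes cannot be told apart, and the gene annotation is not given in the sources used here.

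Differences were fitted in R 4.3.3 by edgeR 4.0.16 (filterByExpr, TMM, quasi-likelihood F-test, Benjamini-Hochberg, threshold 0.05) over all genes. Of 26641 genes, 3395 were at 0 in every library and 28 carry names that read as dates, and the latter were tested and not named. Symbols were matched to GENCODE 44 for 24563 genes (92.2%), 1276 of them through older RefSeq symbols. The fits were tested on simulated data. Guide sequences were taken from the study's supplement and matched exactly, with NGG, to hg38. The members of the 40 gene lists, the comparisons and the tests were chosen with earlier results of these data known, and no list test was made. Named genes are the 12 raised and 12 lowered most with at least 5 CPM, the 6 with the largest CPM difference and the 4 with the smallest adjusted p in each direction, up to 4 changed members a list by adjusted p, the cell type markers, RELA and ZNF10; the latter did not pass (adjusted p = 0.738). Other members named under a list were chosen after their values were seen. Alternatives were DESeq2 1.42.0 (its size factors and its Wald test), upper-quartile factors, other filters, a replicate block, control arrays apart or alone, a joint fit of the 12 libraries, a stricter threshold (0.01), each library dropped in turn, other element definitions and another baseline. The limit of 3 counts covers counting error only, while standard errors and p-values rest on the spread between these libraries. A few members of the gene lists are counted and not reported by name.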

Additional observations from a re-analysis of the deposited data

Results flagged for a closer look

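Of the 201 named genes with 4 control values, 11 had a control library far from the other 3, by Dixon's criterion at the 95% level (the gap to the nearest other library over the range of the group). Chance flags about 1 in 20 such groups, so the number alone is near what chance gives. In 6 of the 11 the library was LTR5HS Sa replicate 1. It was the highest control for CST4 (0.04662 CPM, others at 0), CST2 (1.818 CPM, others at most 0.3112), GBP1 (1.259 CPM, others at most 0.1585), ADAM28 (0.5129 CPM, others at most 0.1057) and CST1 (11.28 CPM, others at most 1.374), all among the most raised genes, and for CLDN10 (8.765 CPM, others 6.393 to 6.595). LTR5HS Sa replicate 2 stood apart for LOC440896 (0.1556 CPM, others at 0) and HOXD8 (0.2075 CPM, others at most 0.109). Nontarget Sp replicate 2 stood apart for FAM49A (6.541 CPM, others 5.269 to 5.394) and ATF3 (46.38 CPM, others 58.49 to 60.24), and nontarget Sp replicate 1 for UQCRH (338.3 CPM, others 315.6 to 318.6). The value for CST4 rests on a single read. Recruitment lay outside the control range in all 11 genes, which were named because they passed the threshold.

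The effect of recruitment differed between dCas9-VPR and dCas9-KRAB in 3505 genes by the interaction test over all 12 libraries.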

How the results depend on the processing

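The counts of changed genes, 4548 in all with 2552 higher and 1996 lower, moved by over 1.5 times under a threshold of 0.01 (2517, with 1667 higher and 850 lower) and when a recruitment library was left out. Over the 6 leave-outs they ranged from 2299 to 4626 in all, from 1546 to 2548 higher and from 689 to 2078 lower, the lowest always without a recruitment library. Other size factors, filters, control arrays, DESeq2 and the joint fit kept the counts within 1.5 times (3869 to 5876 in all). LIN28A turned from a log2 fold change of -0.20 to 0.52 (adjusted p = 0.0304) with nontarget Sp alone as control, the only 1 of 201 named genes that changed direction with a call in these alternatives. The causes of these shifts were not tested. The calls lost among named genes numbered 8 with nontarget Sp alone, 21 at the threshold of 0.01, 33 without LTR5HS Sp replicate 1 and 30 without LTR5HS Sp replicate 2. Requiring 10 counts in every library left 8 HOX genes, 6 of them higher. The share of genes raised within 50 kb of an element, 66.8%, was 57.7% with any single guide match and 70.9% with at least 4 guides. For CRISPRi, DESeq2 called 704 genes (246 higher, 458 lower) against 430 in edgeR, and for the interaction 3892 against 3505.

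Replicate numbers are shared by the lines, but no label says what a number stands for. The differences between replicates correlated at 0.293, 0.404 and 0.378 between the lines, with only 2 numbers. With a replicate block 4961 genes changed (2722 higher, 2239 lower), and for CRISPRi 507 (185 higher, 322 lower). The interaction passed in 4056 with the block.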
